A study of Sus scrofa with 16 samples.

Results

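The genes described here encode chains of the T cell receptor complex, its coreceptors and receptors that tune it: CD3E, CD247, CD8A, CD8B, CD4, TRDC, CD5, CD6 and KIT. They were taken by symbol from the annotation of the count tables, where each of the 9 named 1 of the 25880 genes listed. KIT, a receptor tyrosine kinase, is not a chain of the receptor, and CD5 and CD6 sit beside it in the membrane, so the set is wider than a receptor and its coreceptors. The values below describe which of these genes were found together in single lymphocytes of the pig small intestine, and in which of 4 gut regions.

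The T cell receptor recognises antigen through a variable pair of chains, either alpha with beta or gamma with delta. Its signal passes through the invariant CD3 chains (delta, epsilon and gamma, encoded by CD3D, CD3E and CD3G) and the zeta chain, encoded by CD247, which natural killer cells also use behind their own receptors. TRDC encodes the constant part of the delta chain. CD4 binds class II major histocompatibility molecules, and CD8, made of CD8A paired with itself or with CD8B, binds class I. In pigs, unlike mice, gamma delta T cells are abundant, many of them carry CD8A, and many activated or memory CD4 T cells carry CD8A as well. CD5 dampens antigen receptor signalling, CD6 binds the adhesion molecule ALCAM, and KIT binds stem cell factor and marks mast cells and several innate lymphoid cells.

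The pigs were female, of mixed breed and 7.5 weeks old, with no treatment named. DUOD was duodenum taken directly below the pylorus, JEJ was jejunum from farther along, IPP was ileum dissected to contain Peyer's patches (organised lymphoid tissue), and NoPP patch-free ileum. Each region had 4 sample titles but a single pooled count table, so each region was 1 sample and no difference between regions was tested. Cells came off opened tissue in dithiothreitol and then EDTA, which releases epithelium with the lymphocytes inside it and leaves most of the deeper wall behind, so the lymphocytes described are those this release freed.

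The tables held 44726845 to 91813234 UMIs (unique molecular identifiers, each counting 1 captured RNA molecule) per region. Barcodes were kept at 1000 or more UMIs, 500 or more genes and at most 25% mitochondrial UMIs. The final set had 714 DUOD, 978 JEJ, 3187 IPP and 2049 NoPP cells. Before the results, 1 library stood apart: 121 NoPP barcodes whose UMIs were 10 times or more higher in a second library were left out, and 6 of the final barcodes occurred in more than 1 library. Clusters made without the 9 genes, CD3D and CD3G gave 398 (DUOD), 626 (JEJ), 1576 (IPP) and 1734 (NoPP) T or innate lymphoid-like cells, or 55.7, 64.0, 49.5 and 84.6% of cells. Their median depth was 2921, 3596, 3610.5 and 3547 UMIs in the same order. Intervals are 95% ones for counting error alone, and CPM below is a gene's UMIs in the summed cells after scaling all samples to the same total of 1000000.

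Among the signalling chains, CD3E was spread evenly over the gut while CD247 was low in the duodenum. CD3E was found in 65.8% of T or innate lymphoid-like cells in DUOD, 55.3% in JEJ, and 59.0% and 61.9% in IPP and NoPP, at 1063, 982, 991 and 879 CPM. DUOD had the highest share, and it was also the highest after every cell was thinned to 1000 UMIs, at 51.0% against 44.9 to 46.5% elsewhere. CD247 was found in 48.0% of the cells in DUOD, 66.3% in JEJ, and 59.0% and 63.7% in IPP and NoPP, with 23.9, 39.0, 33.8 and 35.5% after thinning. The DUOD level of 317 CPM (288 to 349) lay below IPP at 551 (533 to 571), NoPP at 631 (612 to 649.7) and JEJ at 709 CPM (676 to 743), and no 2 of these intervals overlapped. The JEJ level was 2.24 times the DUOD level (2.01 to 2.49), and CD247 was the only 1 of the 9 genes that differed by more than 2-fold in any of the 4 region comparisons among genes at 50 CPM or more. In that comparison 1.49% of 2757 genes passed 2-fold, and in NoPP against DUOD, where CD247 was at 1.99 (1.80 to 2.20), 2.37% did. Passing genes made up 1.19% in NoPP against JEJ and 0.878% in IPP against NoPP, with none of the 9 among them.

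The lower CD247 level in the duodenum was also seen inside the 3 largest lymphoid-like clusters. Not all of the smaller clusters are described here, and none of these levels was tested. In the cluster led by CCR9 and XCL1 the level was 812 CPM in DUOD, 1691 in JEJ, and 1125 and 1049 in IPP and NoPP. In the granzyme cluster led by GNLY it was 314, 663, 456 and 540 CPM, and in the cluster led by GZMK it was 318, 642, 448 and 372 CPM. DUOD was lowest in all 3 of these, although the last held DUOD and NoPP close together. In the TAC3 and IL22 cluster, where CD247 had 62 UMIs over all regions, DUOD was highest instead, at 95.1 CPM against 85.0, 40.3 and 74.9.

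The CD8 genes were lowest in the ileum with patches, and CD4 was highest there. CD8A was found in 42.7% of cells in DUOD, 38.3% in JEJ, and 32.4% and 42.6% in IPP and NoPP, and after thinning in 25.4, 24.0, 16.3 and 23.6%. CD8B was found in 19.6, 21.4, 16.7 and 23.1% of cells in the same order. As a ratio of CPM, CD8A in IPP was 0.660 times NoPP (0.613 to 0.711) and CD8B 0.683 times (0.608 to 0.766), while the median gene was at 0.976. The CD8A level of 187 CPM in IPP (176 to 198) lay below the other regions, whose levels of 259.9, 276 and 284 CPM had overlapping intervals. Within the cluster led by GZMK, CD8A was at 640 CPM in IPP and 785 in NoPP, a smaller gap than over all cells.

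CD4 was rare everywhere. It was found in 3 of 398 cells in DUOD, 2 of 626 in JEJ, 70 of 1576 in IPP (4.44%, 3.48 to 5.58) and 18 of 1734 in NoPP (1.04%, 0.616 to 1.64). Its level was 7.46 CPM in DUOD, 0.814 in JEJ, and 16.8 and 4.40 in IPP and NoPP, and IPP was 3.82 times NoPP (2.52 to 5.95), below the 50 CPM that the 2-fold comparison required. The 3 DUOD cells had a median of 38567 UMIs, far above the other lymphoid-like cells of that region, and 2 of them lay in the cluster of dividing cells. After thinning, CD4 was found in 1.40% of IPP cells, 0.404% of NoPP cells, 0.160% of JEJ cells and in 0 of 398 DUOD cells, which allows a share of up to 0.754%.

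TRDC and the remaining receptors varied less. TRDC was found in 27.6% of cells in DUOD, 23.5% in JEJ, and 25.2% and 27.3% in IPP and NoPP, at 547, 546, 627 and 716 CPM, so the ileal levels were the higher ones. CD5 was found in 30.9, 32.1, 35.5 and 33.3% of cells, CD6 in 21.9, 20.0, 20.5 and 25.5%, and KIT in 16.3, 17.4, 25.0 and 22.7%. The KIT shares were higher in both ileal samples before thinning, but the thinned shares of 6.53, 5.11, 9.77 and 7.09% left DUOD and NoPP close together. None of these 4 genes differed by 2-fold between any regions compared.

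**Figure D1:**
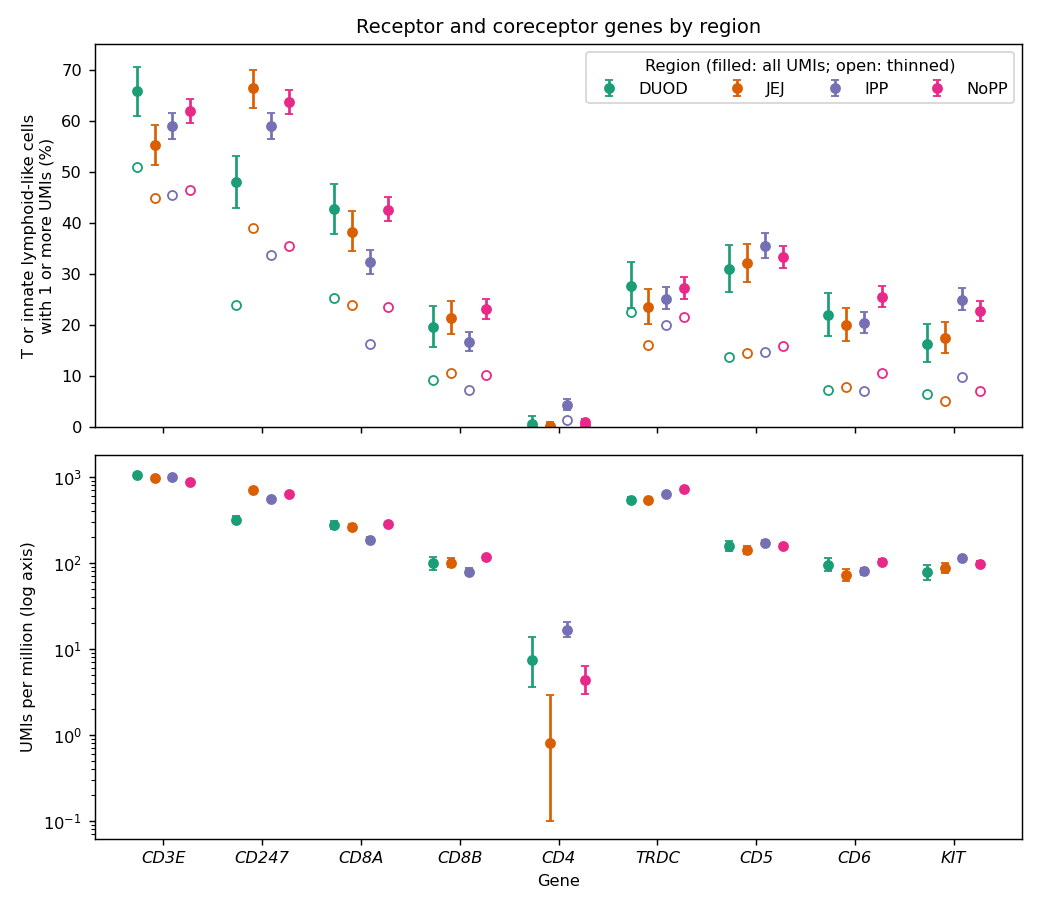
Share of T or innate lymphoid-like cells with 1 or more UMIs of each gene (top, percent; filled points with 95% exact binomial intervals, open points after thinning to 1000 UMIs per cell) and its level in the summed cells (bottom, CPM on a log axis, with exact Poisson intervals), by region. CD247 is lowest in DUOD at 317 CPM, CD8A is lowest in IPP at 187 CPM, and CD4 is highest in IPP at 16.8 CPM.

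Cells of other types, which can pick up free RNA, gave background shares that were low for 8 of the 9 genes. In 1239 B-like cells (median 6239 UMIs) CD3E was found in 2.99%, CD8A in 1.86%, CD8B in 0.726%, CD4 in 0.161%, TRDC in 3.71%, CD5 in 1.94%, CD6 in 0.807% and KIT in 0.404%. In 1002 epithelial-like cells (median 13692 UMIs) TRDC was found in 1.90%, CD8A in 2.20% and CD4 in none. Apart from CD4 in DUOD and JEJ, these shares are far below those of the lymphoid-like cells although the cells were deeper. CD4 was in 0.754% of lymphoid-like cells in DUOD and 0.319% in JEJ, from 3 and 2 cells. CD247 was found in 8.08% of epithelial-like cells but in 41.6% of B-like cells, and its B-like share differed between B-like clusters, so that share is no measure of free RNA. Barcodes with 10 to 100 UMIs, which mostly hold free RNA, carried CD3E at 46.3 to 169 CPM, CD247 at 20.8 to 110.5, TRDC at 27.1 to 126, CD8A at 9.20 to 53.8 and CD4 at 0.249 to 1.60 CPM.

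Across clusters, the 9 genes occurred in different combinations. Clusters led by GZMK with CCL5 (934 cells) and by GZMM with RORA (456 cells) combined CD3E in 91.9 and 97.1% of cells, CD8A in 79.0 and 79.4%, CD8B in 46.5 and 57.2% and CD5 in 57.3 and 73.5%, with TRDC in under 10% of cells. The cluster led by CCR9, which guides lymphocytes to the small intestine (730 cells), had TRDC in 76.0%, CD3E in 92.5%, KIT in 44.7%, CD8A in 37.4% and CD8B in 11.5%. A further TRDC cluster of 108 cells, with PSTPIP1 and MEF2C among its leading genes, had TRDC in 91.7% and CD3E in 95.4% but CD8A in 5.56%, CD5 in 6.48% and 0 cells with CD6, CD8B or CD4. Its CD247 share was 17.6% and its CD247 level 75.2 CPM, against 88.9% and 1143 CPM in the CCR9 cluster. Both TRDC clusters thus carried the delta chain and CD3E at high shares and differed in the coreceptors, CD5, CD6 and the zeta chain.

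CD4 was most frequent in another pair of clusters, which held 47 and 26 of the 93 CD4 cells, with 12 more in the GZMM cluster. The cluster led by PDCD1, CTLA4 and ICOS, receptors of activated T cells, had CD4 in 36.2% of 130 cells, CD3E in 96.2%, CD8B in 3.85% and KIT in 0.769%. The cluster led by S1PR1, LEF1 and CCR7, genes of naive and recirculating cells, had CD4 in 15.1% and TRDC in 36.0% of 172 cells. It differed by region, with CD4 in 21.0% and TRDC in 19.0% of its IPP cells but 4.08 and 65.3% of its NoPP cells. HBB, a red cell gene, was also among the leading genes of the PDCD1 cluster, with 6157 UMIs. Of these, 16 were in the 98 IPP cells and 10 in the 28 NoPP cells, so nearly all lay in the cluster's 4 DUOD and JEJ cells, and HBB was found in 17.7% of its cells.

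The largest cluster, led by GNLY, GZMA and GZMB (1390 cells), had CD3E in 9.50%, CD5 in 0.360%, CD6 in 0.791% and CD8B in 1.15% of cells, but CD3G in 93.2%, CD3D in 76.0%, CD247 in 51.4% and KIT in 26.7%. Its CD3E level was 67.4 CPM in DUOD, 186 in JEJ and 184 in NoPP, against 46.3, 49.7 and 169 CPM in low-UMI barcodes of the same regions, and in IPP it lay below their 154 CPM. Its TRDC level in DUOD, JEJ, IPP and NoPP was 58.4, 103, 54.0 and 149 CPM against 27.1, 34.8, 92.4 and 126. Both genes were thus below the low-UMI barcodes in IPP and above them elsewhere, by little in NoPP, while CD3G was at 1328 CPM over all regions. A cluster of 183 cells with TAC3, TIMP1, IL22 and IL23R among its leading genes, the last 2 known from group 3 innate lymphoid cells, had KIT in 80.3% and CD5 in 38.3%, CD3E in 4.37%, CD3G in 2.73% and 0 cells with CD8A, CD8B or CD4. KIT was at 459.6 CPM there, 177 in the CCR9 cluster and 107 in the GNLY cluster. The genes leading a cluster were used to form it, but the 9 genes, CD3D and CD3G were not, and their shares are given as a description without a test.

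**Figure D2:**
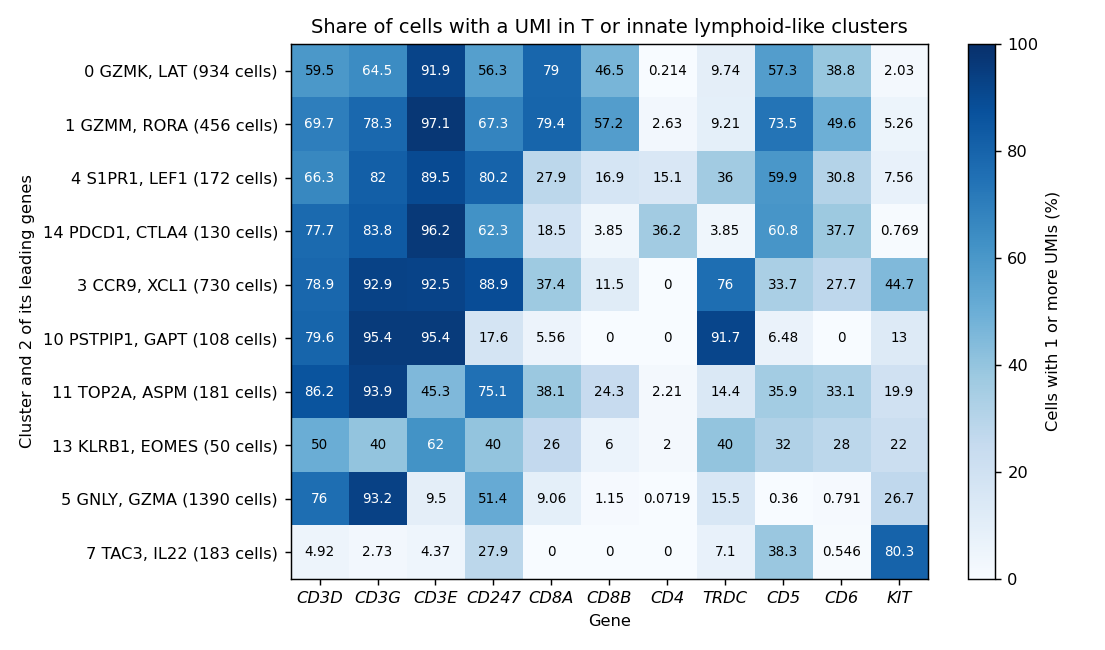
Percent of cells with 1 or more UMIs of each gene (columns) in the 10 T or innate lymphoid-like clusters (rows, with 2 leading genes and the number of cells); darker blue is a higher share. CD3E is in 91.9 to 97.1% of cells of the GZMK, GZMM, PDCD1, CCR9 and PSTPIP1 clusters and in 9.50 and 4.37% of the GNLY and TAC3 clusters.

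CD3 chains did not always occur together. Of 4334 T or innate lymphoid-like cells, 2112 (48.7%) had both CD3G and CD3E, 1368 (31.6%) had CD3G without CD3E, 499 (11.5%) had CD3E without CD3G and 355 (8.19%) had neither. The cells with CD3G alone were 20.1% in DUOD, 33.1% in JEJ, and 33.9% and 31.5% in IPP and NoPP. Their median depth was 3579 UMIs, close to the 3707 UMIs of cells with both chains, and the cause of the missing CD3E was not tested. They had CD5 in 2.34%, CD6 in 1.32%, CD8A in 9.87% and KIT in 27.9%, against 50.1, 35.7, 54.3 and 18.6% in cells with both. Cells with CD3E but no CD3G were shallower, at a median of 2243 UMIs, and had CD8A in 65.9% and CD5 in 57.3%. Cells with neither chain had KIT in 45.9%.

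**Figure D3:**
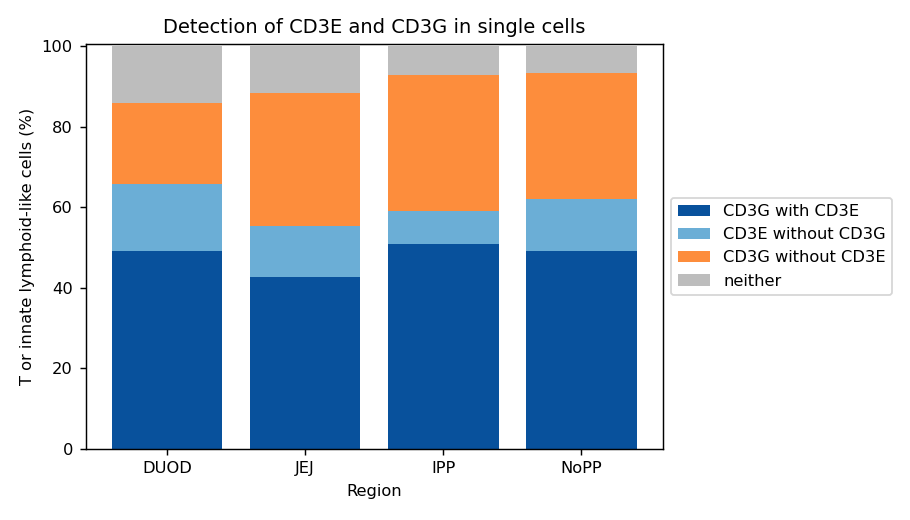
Percent of T or innate lymphoid-like cells in each region with CD3G and CD3E, with 1 of them or with neither, stacked to 100. The orange band, CD3G without CD3E, is 20.1% of cells in DUOD and 31.5 to 33.9% in the other regions.

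Among the 2611 cells with CD3E, CD8A with CD8B was the most frequent combination of the genes that name T cell classes. CD8A with CD8B was found in 677 cells (25.9%), TRDC alone in 596 (22.8%), CD8A alone in 491 (18.8%) and TRDC with CD8A in 268 (10.3%). A further 337 cells (12.9%) had none of CD4, CD8A, CD8B and TRDC. CD4 alone was found in 75 cells (2.87%), CD4 with CD8A in 11 and CD4 with both CD8 genes in 2. TRDC with both CD8 genes was found in 27 cells and TRDC with CD8B alone in 12. In the 1723 cells without CD3E, 1326 (77.0%) had none of these 4 genes.

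CD8B was seldom found without its partner. Of 876 cells with CD8B, 736 (84.0%, 81.4 to 86.4) also had CD8A, 831 (94.9%) had CD3E and 43 (4.91%) had TRDC. Of the 1659 cells with CD8A, 736 (44.4%, 42.0 to 46.8) had CD8B, so CD8A without CD8B was the more frequent state, with the reservation that CD8B was at 1 UMI in 51.0 to 67.9% of the cells that had it and could be missed.

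CD4 and CD8A were found together in 13 cells, all of them ileal. CD8A was found in 0 of 3 CD4 cells in DUOD, 0 of 2 in JEJ, 9 of 70 in IPP (12.9%, 6.05 to 23.0) and 4 of 18 in NoPP (22.2%, 6.41 to 47.6). The IPP and NoPP intervals overlapped widely, and the numbers in DUOD and JEJ allow almost any share. Over all regions 13 of 93 CD4 cells (interval 7.66 to 22.7%) had CD8A, against 38.3% of all T or innate lymphoid-like cells. After thinning, 1 of 30 CD4 cells had CD8A, in NoPP. CD8B was found in 3 and TRDC in 3 of the 93 CD4 cells, while CD3E was found in 91 (97.8%), CD5 in 71 (76.3%) and CD6 in 38 (40.9%). The difference in expression between CD4 cells with and without CD8A could not be tested, since no library had 10 cells of each.

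CD4 cells and CD8B cells were set side by side in IPP (67 and 255 cells) and NoPP (16 and 369 cells), leaving out cells with TRDC or with both genes. These 2 libraries are too few for the test chosen, so ratios are given with counting intervals. Genes at 50 CPM or more in 1 of the groups were compared, and 7.59% of 2871 genes in IPP and 10.8% of 3210 in NoPP were 2-fold or more higher in CD4 cells. Of 19 helper and regulatory genes, 10 could be compared in IPP, where 8 were 2-fold higher in CD4 cells and 1, RORA, lower. In NoPP 12 could be compared, with 9 higher and 0 lower. TNFRSF18 was 35.7 times the CD8B cells in IPP (16.6 to 91.6) and 27.3 times in NoPP (9.06 to 86.4). CTLA4 was 18.3 times (8.16 to 48.2) and 46.8 times (21.3 to 111), and ICOS 5.86 times (3.74 to 9.34) and 8.30 times (4.35 to 15.1). MAF, a transcription factor of helper cells, was 10.0 and 10.9 times, and CCR7 7.06 and 4.65 times the CD8B cells. CD40LG, the helper signal to B cells, was 8.51 times in NoPP (2.70 to 23.2), with an interval of 5.37 to 24.8 in IPP. CXCR5, the receptor that draws helper cells into follicles, had 15 UMIs in 10 of the 67 IPP CD4 cells and 0 in the IPP CD8B cells, and FOXP3, the factor of regulatory T cells, was found in 3 CD4 cells of IPP and 1 of NoPP.

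In the other direction, 6.20% of genes in IPP and 14.5% in NoPP were 2-fold or more lower in CD4 cells. Of the cytotoxic list, 12 of 13 compared were lower in CD4 cells in IPP and 1, SRGN, was higher, and in NoPP 10 of 14 were lower and 1, TBX21, was higher. The chemokine CCL5 was 250.2 times the CD4 cells in IPP (175 to 371) and 317 times in NoPP (136 to 978). GZMB was 49.6 times (32.7 to 79.3) and 33.9 times (18.4 to 70.6), and GNLY 12.2 and 11.2 times. PRF1, the pore protein of killer granules, had 165 and 283 UMIs in CD8B cells and 0 in the CD4 cells of either library. The shared receptor chains lay close together: CD3E in CD4 cells was 0.892 times the CD8B cells in IPP (0.795 to 0.998) and 1.11 times in NoPP (0.896 to 1.37), and CD5 was 1.04 and 1.18 times. CD247 was lower in CD4 cells in both libraries, at 0.595 (0.488 to 0.722) and 0.436 times (0.261 to 0.685).

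TRDC and CD8A met in more cells than CD4 and CD8A. CD8A was found in 21 of 110 TRDC cells in DUOD (19.1%, 12.2 to 27.7), 31 of 147 in JEJ (21.1%, 14.8 to 28.6), 107 of 397 in IPP (27.0%, 22.6 to 31.6) and 159 of 474 in NoPP (33.5%, 29.3 to 38.0). The shares were in the order of the gut from duodenum to ileum, with neighbouring intervals overlapping and DUOD and NoPP apart. After thinning they were 8.89, 11.9, 10.8 and 12.8%, which leaves no such gap, so the order was not detectable at equal depth. Over all regions 318 of 1128 TRDC cells (28.2%, 25.6 to 30.9) had CD8A and 43 (3.81%) had CD8B. In cell types that should lack both genes, 1 of 46 TRDC-bearing B-like cells and 1 of 19 epithelial-like cells had CD8A.

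**Figure D4:**
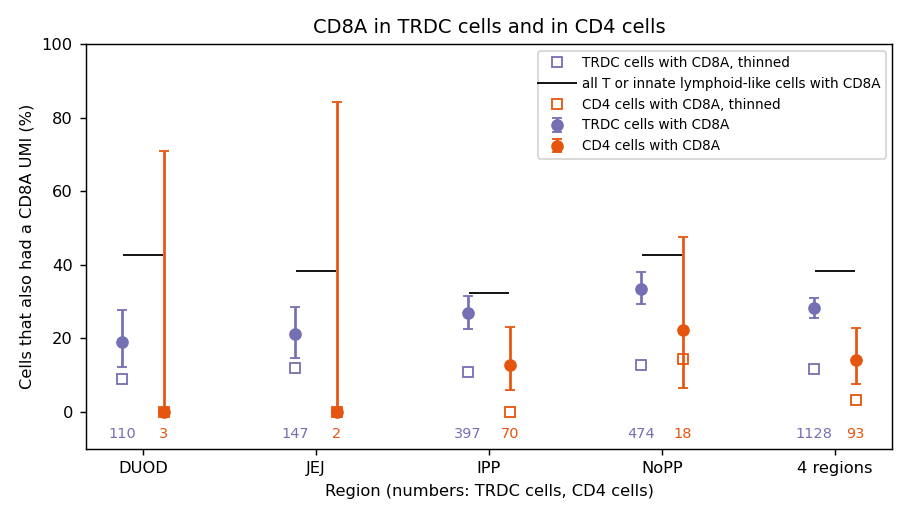
Percent of TRDC cells (purple) and CD4 cells (orange) that also had a CD8A UMI, by region, with 95% exact binomial intervals, open squares after thinning to 1000 UMIs and black lines for all T or innate lymphoid-like cells; the numbers of cells stand at the bottom. The TRDC points lie between 19.1 and 33.5%, below the black line in every region, and the CD4 intervals are wide because DUOD and JEJ had 3 and 2 CD4 cells.

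TRDC cells with CD8A had more CD5 and CD6 than TRDC cells without it, and fewer granzyme A and B transcripts. The comparison used the cells' summed counts in each of the 4 libraries, 21, 31, 107 and 159 cells with CD8A against 89, 116, 290 and 315 without. Median depth was 3473 to 4128 UMIs with CD8A and 3023 to 4259 without. Of 4895 genes tested, 41 (0.838%) passed an adjusted p of 0.05 in edgeR's quasi-likelihood test with the library as a block, 11 of them higher (0.225%) and 30 lower (0.613%) in the CD8A cells. CD4 and CD8B were too low for this test.

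CD6 was at 117 CPM in DUOD, 83.0 in JEJ, and 133 and 150.4 in IPP and NoPP in the TRDC cells with CD8A, and at 51.9, 45.6, 61.4 and 80.1 CPM in those without. It was higher in 4 of 4 libraries and the groups did not overlap, with a log2 fold change of 0.99 (SE 0.17, edgeR adjusted p = 0.00476). CD5 was at 175, 75.4, 177 and 131 CPM against 89.0, 47.6, 93.0 and 76.9 in the same order, higher in each library, with the JEJ value overlapping the other group (log2 fold change 0.84, SE 0.16, edgeR adjusted p = 0.0111). The other 3 members tested did not pass: CD3E was at −0.07 (adjusted p = 0.951), CD247 at 0.33 (adjusted p = 0.513) and KIT at −0.08 (adjusted p = 0.982), all on the log2 scale and from edgeR.

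Called genes were ranked if they had a symbol, 50 CPM in 1 group and the same direction in every library. Besides CD5 and CD6, those that rose most in the CD8A-bearing TRDC cells were SIT1 (1.12), an adaptor that dampens receptor signalling, GLIPR2 (0.99) and ARAP2 (0.92), as log2 fold changes. Those that fell most were MEF2C, a transcription factor (−2.01, SE 0.27, edgeR adjusted p = 0.000228), FGD4 (−1.52), TIMP1 (−1.46), GRASP (−1.41) and the Src family kinase FGR (−1.36). Larger changes of genes that missed these conditions are given below. Of 12 cytotoxic genes tested, 2 rose, GZMM (1.35) and CTSW (0.42), and 3 fell, GZMB (−1.18) and 2 genes annotated as GZMA (−1.10 and −0.93), which share a symbol and may share reads. GZMB was at 2319 ± 1203 CPM (SD, n = 4) with CD8A and 5219 ± 1730.2 without. Of 32 tested genes of receptor signalling 1 rose (SIT1), and of 4 tested genes linked to gamma delta T cells 2 fell, the kinase BLK (−1.74) and RHEX (−1.99), both lower in 3 of 4 libraries. The medians of the cytotoxic, signalling and gamma delta lists were −0.12, 0.17 and −1.31, against 0.00 over all genes tested.

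Where the cells of each group lay moved with these differences. The CCR9 cluster held 56.0% of the TRDC cells with CD8A and 46.5% of those without, the GNLY cluster 9.12 and 23.0%, the PSTPIP1 and MEF2C cluster 1.89 and 11.5%, and the GZMK cluster 14.2 and 5.68%. The GNLY cluster, also led by GZMA and GZMB, had CD3E in 9.50%, CD6 in 0.791% and CD5 in 0.360% of its cells. Its TRDC level lay below the low-UMI barcodes in IPP and little above them in NoPP. The part of its cells in the CD5, CD6 and granzyme differences was not tested. HBB fell by 2.73 on the log2 scale, with 6 red cell markers summing to 14.7 to 94.1 CPM with CD8A and 15.4 to 2234 without, and its part in the result was not tested. Without IPP 26 genes passed, and CD6 and CD5 then missed the threshold (adjusted p = 0.123 and 0.236), CD5 also without NoPP (adjusted p = 0.0554). Without the library block 3 genes passed and neither CD6 nor CD5 did (adjusted p = 0.0777 and 0.257 in edgeR). Both calls were also lost in DESeq2 (adjusted p = 0.0878 and 0.189), with 2 UMIs needed for detection (0.0722 and 0.83), after thinning (0.888 and 0.408) and at a 10% mitochondrial limit (0.3 and 0.856), so they rest on the settings used. Of the 19 calls of genes named in this comparison, none held without the library block or after thinning and 4 held with 2 UMIs needed, where TIMP1 turned to 0.13.

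TRDC cells and CD8B cells differed in most of the 9 genes. The groups held 110, 142, 387 and 444 TRDC cells without CD4 or CD8B and 78, 129, 255 and 369 CD8B cells without CD4 or TRDC in DUOD, JEJ, IPP and NoPP. Of 6277 genes, 729 (11.6%) passed edgeR's test, 421 higher in TRDC cells (6.71%) and 308 lower (4.91%). All 6 members that could be tested passed, 3 in each direction. CD4 could not be tested, since cells with CD4 were left out of both groups. CD8A was at 109.7, 55.0, 102 and 125 CPM in TRDC cells and 682, 835, 621 and 659 CPM in CD8B cells, a log2 difference of −2.79 (SE 0.16, edgeR adjusted p = 7.67e-12). No TRDC value came near the CD8B values. This gap was partly set by the choice of groups: 84.0% of all CD8B cells had CD8A, and the TRDC group left CD8B cells out. Its p-value is therefore no separate support.

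CD5 and CD6 were lower in TRDC cells and KIT was higher. CD5 was at 88.2 ± 27.3 CPM (SD, n = 4) in TRDC cells and 345 ± 41.0 in CD8B cells (log2 fold change −1.97, edgeR adjusted p = 1.24e-09), and CD6 at 70.8 ± 19.9 and 178 ± 6.25 CPM (−1.25, adjusted p = 1.42e-06). KIT was at 83.7, 107, 169.8 and 134 CPM in TRDC cells and 8.42, 8.72, 27.4 and 24.4 CPM in CD8B cells, with no overlap (2.68, SE 0.19, edgeR adjusted p = 1.87e-10). The signalling chains were moderately higher in TRDC cells: CD3E by 0.43 (adjusted p = 0.00132), CD247 by 0.65 (adjusted p = 0.000111), CD3G by 0.93 and CD3D by 0.38 on the log2 scale, each in 4 of 4 libraries. Without the library block CD3E and CD247 missed the threshold, at edgeR adjusted p = 0.0536 and 0.161. CD247 also missed it at a 10% mitochondrial limit (edgeR adjusted p = 0.0907).

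Among other genes higher in TRDC cells, RHEX had 0 UMIs in the CD8B cells and was at least 61.4-fold higher, taking 3 UMIs over the group as the floor. MEF2C had 557 UMIs against 3, a ratio of 137 (46.8 to 668), and FGR, FGD4 and the leukotriene enzyme LTC4S were 3.70, 3.67 and 3.66 higher on the log2 scale. GZMK (−4.15), PCED1B (−2.83) and GZMM (−2.08) were lower. Of 8 tested receptors and adaptors of natural killer cells 7 rose, among them the adaptors FCER1G (3.29) and TYROBP (3.01), KLRK1 (1.34) and XCL1 (1.11), and 1 fell, HCST (−0.74), with a list median of 1.27 against −0.01 over all genes. Of 35 tested signalling genes 8 rose and 8 fell: the phosphatase PTPN6 rose by 1.16 and the adaptor LAT was at −1.68, with 91.5 ± 26.6 CPM in TRDC cells and 319 ± 30.2 in CD8B cells. Of 10 tested cell cycle genes 5 fell, BIRC5 (−1.45) and PCLAF (−1.56) among them, and none rose.

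Of 14 cytotoxic genes 6 rose, led by GNLY (2.36), and 3 fell, and of 5 gamma delta genes 3 rose (RHEX, SOX4 at 2.99 and BLK). IL22 had 90 UMIs in the TRDC cells and 0 in the CD8B cells, at least 22.2-fold higher. The TAC3 and IL22 cluster held 13 of the 1083 TRDC cells, and CD8B was found in 0 of its cells. TRDC was at 50.4 CPM in that cluster, against 27.1 to 126 CPM in low-UMI barcodes. The part of these 13 cells in the IL22 count was not tested. The groups lay in different clusters, 49.5% of TRDC cells in the CCR9 cluster and 50.8% of CD8B cells in the GZMK cluster. The GNLY cluster held 19.7% of TRDC cells, 31.7% of those in JEJ, and 1.81% of CD8B cells, and the part of that in the list counts was not tested. Markers of other cells moved too: HBB (2.09) and the epithelial genes CDH1 (1.29) and CDH17 (3.16) were higher in TRDC cells, 2 of 7 tested epithelial markers, with sums of 199.5 to 282 CPM in TRDC cells and 102 to 224 in CD8B cells. Their part in the result was not tested. Without IPP 443 genes passed, and with a 10% mitochondrial limit 263.

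KIT cells were of more than 1 kind. Of 962 KIT cells, 417 (43.3%, 40.2 to 46.5) had CD3E, 377 (39.2%) had TRDC, 188 (19.5%) had CD8A, 60 (6.24%) had CD8B and 1 had CD4. KIT with TRDC was found in 35.4, 40.4, 39.6 and 39.1% of KIT cells in DUOD, JEJ, IPP and NoPP, while TRDC was in 26.0% of all T or innate lymphoid-like cells. After thinning these shares of KIT cells were 19.2% (5 of 26), 21.9% (7 of 32), 34.4% and 35.8%. The near-level shares were thus not seen at equal depth, where DUOD and JEJ were lower but had few cells. By cluster, 371 KIT cells lay in the GNLY cluster, 326 in the CCR9 cluster and 147 in the TAC3 and IL22 cluster.

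KIT cells without CD3E (44 in DUOD, 67 in JEJ, 228 in IPP, 206 in NoPP) were compared with CD3E cells without KIT (241, 304, 764 and 885). Of 6759 genes, 646 (9.56%) passed edgeR's test, 387 higher (5.73%) and 259 lower (3.83%) in the KIT cells. All 6 members tested were lower in the KIT cells, but CD3E was used to choose the groups. CD3E was found in 94.9% of all CD8B cells, 96.0% of CD6, 92.0% of CD5, 89.0% of CD8A, 80.3% of TRDC and 68.0% of CD247 cells. The lower levels were thus partly set by that choice, and the p-values are no separate support. CD8B had 2 UMIs against 1483, a ratio of 221 (61.1 to 1827), CD6 was at 0 to 8.49 CPM against 138 to 171 (log2 fold change −5.34, SE 0.32, edgeR adjusted p = 1.27e-06), and CD8A was at 2.83 to 33.9 against 339 to 537 CPM (−4.53). TRDC was at 37.9, 79.2, 48.8 and 53.0 CPM against 696, 709, 692 and 868 (−3.77), and CD5 at 31.6, 73.6, 21.8 and 20.1 against 228, 272, 317 and 267 (−3.14), with no overlap in either. CD247 was lower by less, at 338 ± 141 against 582 ± 168 CPM (SD, n = 4, log2 fold change −0.81, edgeR adjusted p = 0.00344, and 0.130 without the library block).

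CD3G and CD3D did not follow CD3E. CD3G was at 436, 396, 1004 and 1116 CPM in KIT cells and 713, 763, 854 and 675 in CD3E cells of DUOD, JEJ, IPP and NoPP (log2 fold change −0.14, edgeR adjusted p = 0.820), lower in the first 2 regions and higher in the ileum. CD3D was at −0.47 (edgeR adjusted p = 0.198). The cells behind these values also differed by region: the TAC3 and IL22 cluster held 56.8% of the KIT cells in DUOD and 61.2% in JEJ but 23.2% in IPP, where the GNLY cluster held 69.3%.

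Genes of group 3 innate lymphoid cells were among those higher in the KIT cells. The TAC3 and IL22 cluster, with KIT in 80.3% of its cells, held 25.9% of the KIT cells and 0.0912% of the CD3E cells. These differences were thus partly set by choosing groups on KIT and CD3E, and the calls are no separate support. GNG11 had 89 UMIs against 3, a ratio of 99.5 (33.0 to 492), and CD109 (5.06), the metalloproteinase inhibitor TIMP1 (4.80), the thromboxane enzyme TBXAS1 (4.73) and the barrier cytokine IL22 (4.71) followed on the log2 scale. IL22 was at 171, 116, 309.7 and 212 CPM in KIT cells and at most 21.2 CPM in CD3E cells. Of 9 tested genes of group 3 innate lymphoid cells 6 rose and none fell, among them IL22, IL23R (4.26), LTB (3.09), CXCL8 (2.88) and ID2 (0.94), with a list median of 2.88 against −0.01 over all genes. Of 8 natural killer genes 6 rose, led by TYROBP (4.67) and KLRB1 (4.23), and XCL1 fell by 1.11. Of 15 cytotoxic genes 6 rose, with GNLY at 3.53, and GZMM and GZMK (−2.94) fell.

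The signalling list fell in the KIT cells more than it rose. Because CD3E was used to choose the groups, this too was partly set by that choice and is no separate support. Of 35 genes tested 14 fell, among them CD28 (−4.42), LAT (−2.99), SIT1 (−2.75) and GRAP2 (−2.30), and 5 rose, with the kinase TXK at 1.98. The exit receptor S1PR1 had 2 UMIs against 549, a ratio of 81.8 (22.5 to 677) in the CD3E cells' favour, GZMM 3 against 610 (60.6, 20.6 to 295), and IL6R was at least 29.2-fold lower in the KIT cells. ALCAM, the ligand of CD6, was higher in the KIT cells (1.11, edgeR adjusted p = 0.0283). KIT is also a mast cell gene: 7 mast cell markers in the annotation summed to 57.4 to 221 CPM in KIT cells and 16.0 to 34.2 in CD3E cells, but HDC, MS4A2 and GATA2 were at 0 in both groups and LTC4S (3.15) was the only 1 tested. Of 8 epithelial markers tested, CDH1 (1.66) and CDH17 (2.60) were higher in KIT cells, with sums of 208 to 445 CPM against 134 to 265, and red cell markers summed to 8.21 to 25526 CPM against 21.6 to 3097, with HBB not passing. Their part in the result was not tested. Without IPP 286 genes passed and without NoPP 369.

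**Figure D5:**
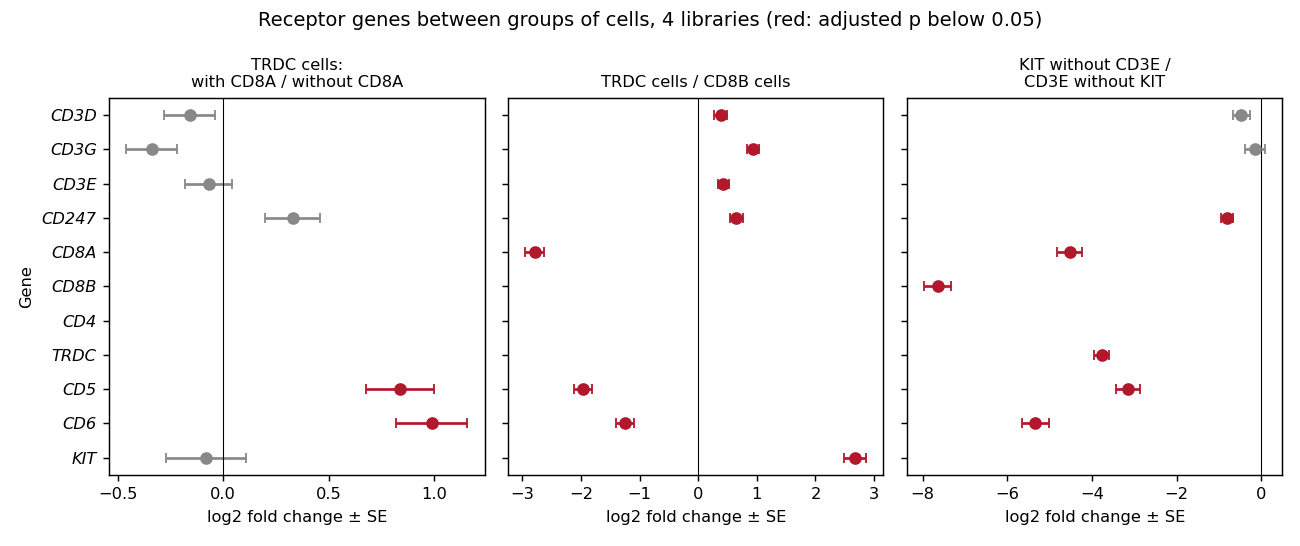
Log2 fold change with its standard error (edgeR, 4 libraries) of the receptor genes, CD3D and CD3G in the 3 comparisons of cells; red points passed an adjusted p of 0.05, and genes that defined a group or were too low have no point. CD5 and CD6 lie to the right of 0 for TRDC cells with CD8A (0.84 and 0.99) and to the left for TRDC against CD8B cells and for KIT cells.

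The genes with a symbol most like each of the 9 were found by Pearson's r over 26 sums of counts. Each sum was a cluster in a region with 30 or more cells, from 9 clusters. The scale was log2(CPM + 10), and of the 4731 genes compared, those without a symbol were left out of the ranking. The sums share libraries and clusters, so r is a description. CD8A was most like CD8B (0.95), CXCR3 (0.93) and CD6 (0.93), and CD6 most like GZMM (0.95). CD5 was most like SH3KBP1 (0.96), LAPTM5 and ARAP2 (both 0.91), and CD4 most like ZC3H12D (0.95), RBM38 (0.89) and CCR7 (0.86). KIT was most like SLC49A3 (0.88), CTNNA1 (0.84) and TYROBP (0.82), and TRDC most like HVCN1 (0.78), RGS2 (0.72) and MFAP5 (0.70). CD3E was most like KLHL15 and RGS2 (both 0.88) and TMEM131L (0.84), and CD247 like ZNRF1 (0.84), HPSE (0.83) and OTULINL (0.79). Among the 9, CD8A with KIT (−0.73) and CD6 with KIT (−0.69) were the most opposed pairs.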

How the data were processed

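Droplet libraries (10x Chromium, 3′ version 3) of 4 regions were measured. The deposited values were raw UMI counts, made by the authors with Cell Ranger 4, per the file headers (4.0.6 per the submitters' processing notes); their genome build is not given in the sources used here. The 16 titles could not be told apart in the tables. Of 25880 genes, 17733 carried a symbol in the files and 977 took 1 from the name table. The 9 genes and all gene lists were chosen with earlier results of these data known. Total UMIs were 44726845 to 91813234 per region. Barcodes whose UMIs were 10 times or more higher in a second library were removed, as were 133 doublets, the highest scores at 0.8% per 1000 cells, because the automatic threshold marked 32 cells and had not worked; doublets may remain.

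Cells (counts scaled to 10000, 2000 variable genes, 30 components, 20 neighbours, Leiden resolution 1, scanpy 1.11.5) were clustered without the 9 genes, CD3D and CD3G. Clusters were named "-like" from marker lists, a marker counting at 10% of cells and a 2-fold higher level, with 3 needed. The rule was changed after the clusters were seen, so that a competing class counts only with 3 detected markers; this named the PDCD1 cluster. Another naming could change the shares.

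Counts were summed per library and group of cells (10 or more cells in each). They were tested with edgeR 4.0.16 (R 4.3.3; quasi-likelihood, TMM, filterByExpr, library as a block, Benjamini-Hochberg over all genes, threshold 0.05, two-sided) and, as an alternative, DESeq2 1.42.0. At least 3 libraries were required. The 4 libraries, each the pool of a different region, may share animals. With the library as a block, p-values measure how evenly a difference between groups repeats over the 4 libraries, and not a spread between animals. Genes that define a group were left out of calls. The fit was tested on simulated data with a fixed spread. For TRDC cells with CD8A against those without, it recovered 10.4% of 1.5-fold and 63.8% of 2-fold changes. The shares were 22.9 and 72.3% for TRDC against CD8B cells and 20.8 and 81.6% for KIT against CD3E cells. Small changes could therefore be missed. Shares have exact Clopper-Pearson intervals, and ratios exact Poisson ones. Thinning drew 1000 UMIs per cell. Named were the 9 genes, up to 4 genes per list with the smallest adjusted p, and 3 most alike genes. Also named were the 5 largest called changes each way with the same direction in every library and 50 CPM in 1 group. The most alike genes and largest changes were taken among genes with a symbol. Further list genes were named after their values were seen. Alternatives changed the tool, filters, block, detection limit, thinning, cell limits, doublets and clustering, and left out each library. The alternative without the PDCD1 cluster, led by HBB among others, was added after seeing the data. Some genes of the lists are not reported here.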

Additional observations from a re-analysis of the deposited data

Results flagged for a closer look

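Several genes moved in opposite directions in different regions within a comparison, by counting intervals that lay on either side of 1; these differences between regions were not tested. In TRDC cells with CD8A against those without, CD3E was 1.19 times as high in NoPP but 0.717 times in DUOD and 0.851 times in JEJ. In KIT cells without CD3E against CD3E cells without KIT, CD3D was 1.19 times as high in NoPP (1.06 to 1.34) and 0.419 to 0.854 times in the other regions. CD3G was 1.22 times as high in IPP (1.13 to 1.32) and 1.69 times in NoPP but 0.570 times in DUOD and 0.497 times in JEJ. The 2 genes annotated as GZMA were 2.44 and 2.58 times as high in DUOD, 7.78 and 7.09 times in IPP and 4.98 and 4.78 times in NoPP, but 0.682 and 0.871 times in JEJ. In DUOD and JEJ most of these KIT cells lay in the TAC3 and IL22 cluster, in IPP in the GNLY cluster.

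CD3E was also found in barcodes set aside for over 25% mitochondrial UMIs: in 4.15% of 2435 in DUOD (3.39 to 5.02), 3.66% of 2187 in JEJ (2.91 to 4.53), 11.9% of 1558 in IPP (10.4 to 13.7) and 16.6% of 918 in NoPP (14.2 to 19.1). A count of 0 would allow 0.123 to 0.327%. In epithelial-like cells, a measure of background, CD3E was found in 4.03% in DUOD (2.03 to 7.10), 2.72% in JEJ (1.25 to 5.10), 4.72% in IPP (2.46 to 8.11) and 9.03% in NoPP (4.89 to 14.9). The DUOD and JEJ shares are not distinguishable from that background, and the NoPP intervals also overlap slightly.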

How the results depend on the processing

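No paired analysis was possible because the tables pool the 4 titles of each region, so no replicate number could be assigned to a cell. For TRDC cells with CD8A against those without (41 genes), DESeq2 passed 13 genes, no filter 95, no library block 3, detection at 2 UMIs 11, thinning 4, a 10% mitochondrial limit 18, and leaving out 1 library 26 to 49; 0 of 19 named calls held without the block or after thinning, and 7 held in DESeq2. For TRDC against CD8B cells (729) the numbers were 331 with DESeq2, 445 without the block, 374 after thinning, 263 at the 10% limit and 443 to 717 with 1 library left out. For KIT against CD3E cells (646) they were 389 with DESeq2, 1137 without a filter, 365 at 2 UMIs, 216 after thinning, 269 at the 10% limit and 286 to 838 with 1 library left out. Signs turned for TIMP1 in the first comparison (0.13 at 2 UMIs), for the 2 GZMA genes in the second (−0.32 and −0.15 at 2 UMIs, −0.35 and −0.08 thinned) and for KLRK1 in the third (−0.02 at 2 UMIs). Without the PDCD1 cluster 33, 719 and 656 genes passed in the 3 comparisons. The cause of these changes was not tested, beyond the fewer cells and samples that some settings leave.

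The share of CD4 cells with CD8A was 3.70% at 2 UMIs and 0% thinned in IPP, and 0% at 2 UMIs in NoPP. The share of TRDC cells with CD8A at 2 UMIs was 11% (DUOD), 8% (JEJ), 9.38% (IPP) and 16.7% (NoPP), and thinned it was 8.89, 11.9, 10.8 and 12.8%. Of 360 alternative region ratios 337 stayed within the interval, 23 moved beyond it and 0 turned. DESeq2's size factors in edgeR kept all 19, 71 and 64 named calls. Depth leaves 30 of 93 CD4 cells after thinning.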

Other observations

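Outside the T and innate lymphoid-like cells, CD247 followed the kind of B-like cell. It was found in 66.8% of 485 dividing B-like cells (62.4 to 71.0) and 63.1% of 233 cells of the B-like cluster led by CD79B and MS4A1 among others (56.5 to 69.3), but in 8.64% of 521 cells of the cluster led by BANK1 and CCR7 among others (6.37 to 11.4). Thinned to 1000 UMIs, the shares were 15.7, 24.5 and 2.88%, and the levels were 142, 268 and 17.8 CPM. CD3E in the same clusters was at 3.09, 3.43 and 2.69%. Nearly all of these cells came from IPP.

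A cluster of 112 cells with APOE, C1QA and COL3A1 among its leading genes (median 7925 UMIs), which mixed stromal and macrophage genes, had KIT in 24.1%, CD5 in 14.3% and CD4 in 13.4% of cells, with CD3E in 8.93%. KITLG, which encodes the ligand of KIT, had 3 UMIs in the 4334 T or innate lymphoid-like cells, and ALCAM was found in 4.34% of them.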
